A study of Homo sapiens with 8 samples.

Results

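The genes described here encode the heat shock proteins and their J protein partners. They were chosen by name: every non-control probe whose RefSeq transcript carries a symbol beginning with DNAJA, DNAJB, DNAJC, HSPA, HSPB, HSPD1, HSPE1, HSPH1, HSP90A or HSP90B was taken, which gave 70 of the 16557 genes that could be named, with 112 of the 41000 probes of the array. The name rule also takes in 3 genes that are not chaperones of these families themselves, namely HSPBP1, HSPBAP1 and the readthrough gene DNAJC25-GNG10. The rule itself uses names and no measured value.

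The arrays compared RNA bound to Ago2 with total RNA in ST486 cells, a line that derives from a Burkitt lymphoma (BL). These cells had been transduced with the empty retroviral vector MXW-PGK-IRES-GFP (EV-ST486) or with the same vector carrying miR-155 (miR-155-ST486), and in both cases the GFP+ cells were sorted. RNA was isolated before immunoprecipitation (the total or T fraction) and from what an antibody against Ago2 precipitated (the IP fraction). Each of these 4 RNA samples was labelled once with Cy3 and once with Cy5, and the fractions of 1 population were always hybridized against each other, in both dye orientations, on 4 Agilent 2-colour arrays with 8 channels. The labellings are technical repeats, so n was 1 per condition, conditions could not be tested against each other, and the spread between dye orientations is the only error given below. The arrays hold no IP with a control antibody.

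HSP70 proteins (HSPA) bind and release unfolded proteins in a cycle driven by ATP. J proteins (DNAJA, DNAJB and DNAJC) bring them their clients and stimulate ATP hydrolysis, while the HSP110 proteins (HSPH1, HSPA4, HSPA4L) exchange the nucleotide. HSP90 proteins mature signalling clients, small heat shock proteins (HSPB) hold unfolded proteins without ATP, and HSPD1 with HSPE1 forms the folding chamber of mitochondria. Ago2 is the protein that carries miRNAs to their target transcripts, so an IP/T ratio, the signal in the IP fraction divided by that in the total fraction, describes how far a transcript is enriched with Ago2.

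The mature miRNA that the vector adds is shown because it defines the comparison between the cells. In RefSeq hsa-miR-155-5p lies on the + strand of chr21:25573983-25574006 (GRCh38.p14), and the capitals mark its seed, bases 2 to 8, with which a miRNA pairs to its targets:
hsa-miR-155-5p: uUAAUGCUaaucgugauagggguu

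Many of these genes are classical targets of heat shock factor, which binds repeats of the letters GAA in alternating orientation. A run of 3 such repeats (GAA, TTC and GAA, or TTC, GAA and TTC, with 2 bases of any kind between them), which reads as one of these forms on either strand, was searched for in the RefSeq promoter windows, from 250 bases before to 50 bases after each gene's start. It was found in 172 of 35116 windows (0.49%) and in 7 of the 84 windows of 63 member genes, namely those of DNAJA1, DNAJB6, HSP90AA1, HSP90AB1, HSPA6, HSPA8 and HSPD1. HSP90AB1, HSPD1 and HSPA8 each had 2 matches, overlaps counted. The first matches of 5 genes whose total RNA is compared between the populations below are shown to give the letters behind the window count. They are read on the strand of their gene, with only the repeats of the first match in capitals. In GRCh38.p14 they lie at chr14:102087114-102087138 (- strand) for HSP90AA1, chr6:44247772-44247796 (+ strand) for HSP90AB1, chr2:197500067-197500090 (- strand) for HSPD1, chr11:123062348-123062372 (- strand) for HSPA8 and chr9:33025270-33025294 (+ strand) for DNAJA1:
HSP90AA1: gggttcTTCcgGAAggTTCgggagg
HSP90AB1: agcaggTTCtgGAAgaTTCatgggc
HSPD1: gcattTTCtgGAAagTTCtggaac
HSPA8: gagcttGAAagTTCcaGAAcgctgc
DNAJA1: cgggcgGAActTTCcaGAAcgctcg

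The endoplasmic reticulum (ER) stress response element (CCAAT and CCACG with 9 bases of any kind between them), searched for on both strands, was rarer and was found in 27 windows (0.0769%). HSPA5 and HSP90B1, the HSP70 and the HSP90 of the ER lumen, were the 2 members among them, at chr9:125241386-125241414 (- strand) and chr12:103930211-103930239 (+ strand), with the conserved letters in capitals:
HSPA5: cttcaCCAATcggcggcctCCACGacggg
HSP90B1: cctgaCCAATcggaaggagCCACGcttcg
HSP90B1 had 2 matches, of which the first is shown. A match describes letters in a window and does not show that a factor binds there.

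Of the 112 probes, 83 were detected in at least 4 of the 8 channels, and 75 probes of 48 genes also lay within 2-fold between the labellings of each sample. These 75 probes were kept, as were 15529 probes of the whole array, and 64 of them were detected in all 8 channels. A further 23 member probes were detected in 0 channels. The heat-inducible HSP70 genes gave no value: all 3 probes of HSPA1A and the probe of HSPA6 were detected in 0 channels, and no probe was matched to HSPA1B. The HSPA2, HSPA1L, HSPA12A, HSPA12B, HSPB2, HSPB3, HSPB7, HSPB8, DNAJB7, DNAJB8, DNAJC6, DNAJC5G and DNAJC28 probes were likewise detected in 0 channels. DNAJC7, DNAJC17 and DNAJC22 were detected in 7, 5 and 4 channels but differed more than 2-fold between labellings, and DNAJA4, DNAJC5B, DNAJC25 and HSPB6 were detected in at most 3.

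Between 14094 and 22161 probes were detected per channel, and no signal of a kept probe was saturated. Each of the 2 slides held the arrays of 1 vector, so slide and vector cannot be told apart in any comparison of the populations, whereas both fractions of a population shared each array. The B cell genes CD79A, MS4A1 and CD79B were kept, CD22 was detected in 7 channels but differed more than 2-fold between labellings, and the only PAX5 probe was detected in 0 channels. The T cell genes CD3D, CD3E and CD2 and the myeloid genes CSF1R and MPO were likewise detected in 0 channels. CD8A, CD33 and CD14 were detected in 8, up to 6 and 5 channels and were not kept because their labellings differed more than 2-fold.

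With the empty vector, 14 of the 75 chaperone probes, of 10 genes, reached an IP/T ratio of 2. This was 18.7% of them, against 12.1% of all kept probes. At the other end, 5 probes (6.67%) had a ratio of at most 0.5, against 10.0% of all kept probes. The median ratio was 1.04 for the chaperone probes and 0.900 for all kept probes. With miR-155 15 probes of 10 genes (20.0%, against 12.2%) had a ratio of at least 2 and 8 (10.7%, against 9.83%) a ratio of at most 0.5, with medians of 0.987 and 0.882. In each vector 2 of the enriched probes, of 1 gene, were those of DNAJC25-GNG10, which is not itself a chaperone of these families. Of the 10 enriched genes in each vector 5 were DNAJB members, and 8 of the 14 DNAJB probes passed 2-fold in either vector, compared with 1 of 24 DNAJC probes in EV-ST486 and 2 with miR-155, and with 0 of 9 HSP90 and 0 of 4 DNAJA probes in either. Of the 13 HSP70 and HSP110 probes 1 passed in EV-ST486 and 0 with miR-155. Small heat shock proteins had 1 and 2 of 4 probes past 2-fold, and HSPD1 with HSPE1 had 1 of 3 in each vector.

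**Figure D1:**
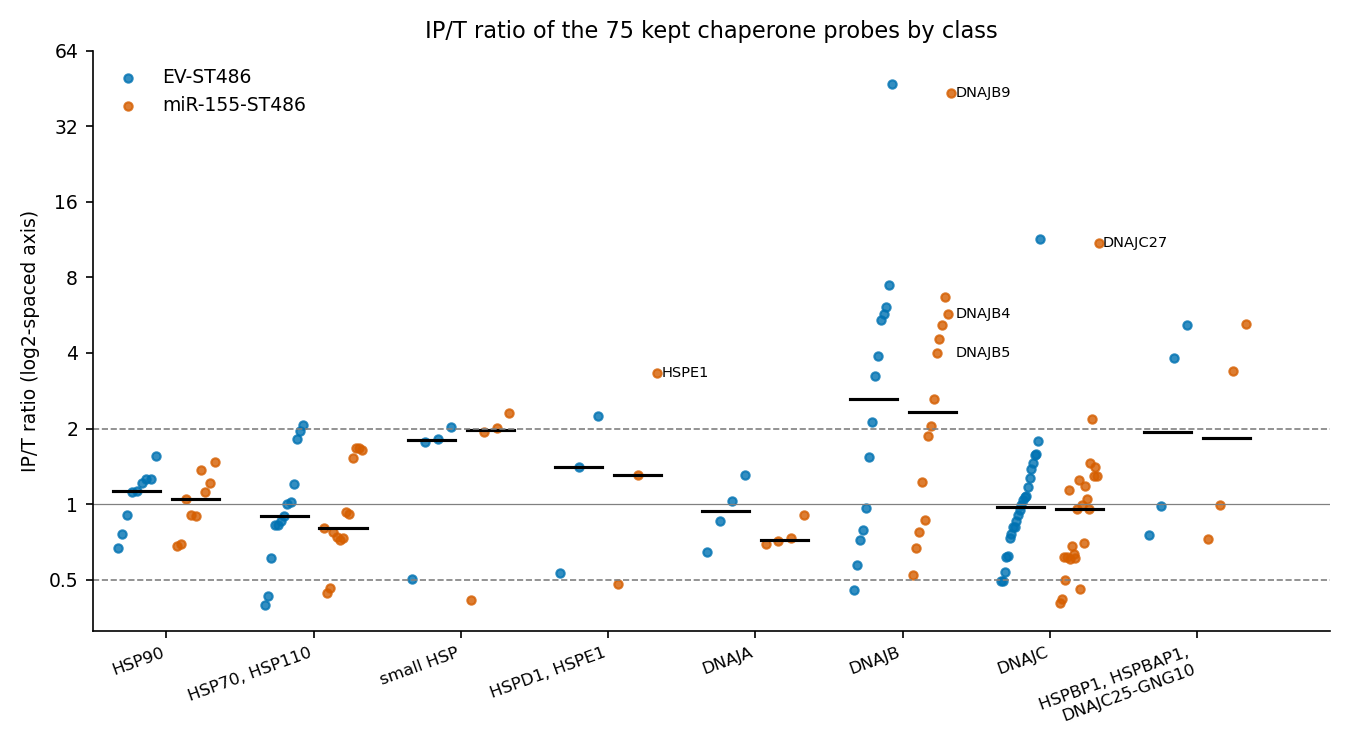
IP/T ratio (vertical axis, log2-spaced) of each of the 75 kept probes in EV-ST486 (blue) and miR-155-ST486 (orange), by chaperone class; each point is a probe as the mean of its labellings, black lines are class medians and dashed lines mark 2-fold. DNAJB9 at 47.0 and 43.3 and DNAJC27 at 11.4 and 10.9 lie above all other chaperone probes, and the HSP90 and DNAJA probes lie between the dashed lines.

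The transcript most enriched with Ago2 was that of DNAJB9, also known as ERdj4, a J protein of the ER that takes part in the unfolded protein response. Its normalized signal in total RNA was 1349 (Cy3) and 1162 (Cy5) with the empty vector and 995 and 1339 with miR-155. In IP RNA it was 43750 and 79280 with the empty vector and 50156 and 49689 with miR-155. Every IP value was thus above every total value in both vectors, which the filter on labellings ensures within a vector for any probe past 2-fold. The IP/T ratio was 47.0 with the empty vector, with 58.8 and 37.7 in the dye orientations, and 43.3 with miR-155, with 49.9 and 37.5. DNAJB9 ranked 3 of 15529 kept probes with the empty vector and 5 with miR-155. With normexp background correction, which subtracts a modelled background and then adds an offset of 50 to all signals, its ratios were 19.7 and 16.6.

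DNAJC27, a Ras-like small GTPase fused to a J domain, had signals of 340 and 307 in total RNA and 3782 and 3609 in IP RNA of EV-ST486. With miR-155 the values were 287 and 283 in total RNA and 3057 and 3178 in IP RNA. The labellings of each sample lay within 2-fold, as required of every kept probe, so fractions more than 2-fold apart could not overlap. The IP/T ratios were 11.4 (10.6 and 12.3 in the dye orientations) and 10.9 (11.1 and 10.8), and with normexp 2.26 and 2.02. The other DNAJC27 probe differed more than 2-fold between labellings and was left out.

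DNAJB4, a cytosolic J protein, was dim in total RNA and clearly measured in IP RNA on both of its probes. The brighter probe gave 49.1 and 78.8 in total RNA and 484 and 447 in IP RNA of EV-ST486. With miR-155 it gave 79.1 and 105 in total RNA and 583 and 462 in IP RNA. Total RNA of EV-ST486 was detected in only 1 of its 2 labellings on either probe. The same held for total RNA of miR-155-ST486 on the dimmer probe, with signals of 61.8 and 41.7. The IP/T ratios of the probes were 7.47 and 6.09 with the empty vector and 5.70 and 6.66 with miR-155, above 5 in each dye orientation. With normexp they were between 1.14 and 1.29 and no longer reached 2, so the size of this ratio depended on the background correction.

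DNAJB5, another cytosolic J protein, had a single probe with total RNA signals of 1110 and 910 in EV-ST486 and 1006 and 704 with miR-155. The IP RNA signals were 4565 and 3370 in EV-ST486 and 3481 and 3280 with miR-155. The IP/T ratios were 3.90 (3.04 and 5.02) and 4.01 (3.26 and 4.94), and with normexp 1.80 and 1.71. The readthrough gene DNAJC25-GNG10, whose probes the array design lists under GNG10, had ratios of 5.18 and 3.81 on its 2 probes with the empty vector and of 5.21 and 3.40 with miR-155. With normexp the first probe had 3.33 and 2.85, and the second, with 1.16 and 1.32, no longer reached 2. Its transcript also holds GNG10, a subunit of G proteins, and DNAJC25 itself was detected in at most 3 channels, so these probes cannot be assigned to either gene here.

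**Figure D2:**
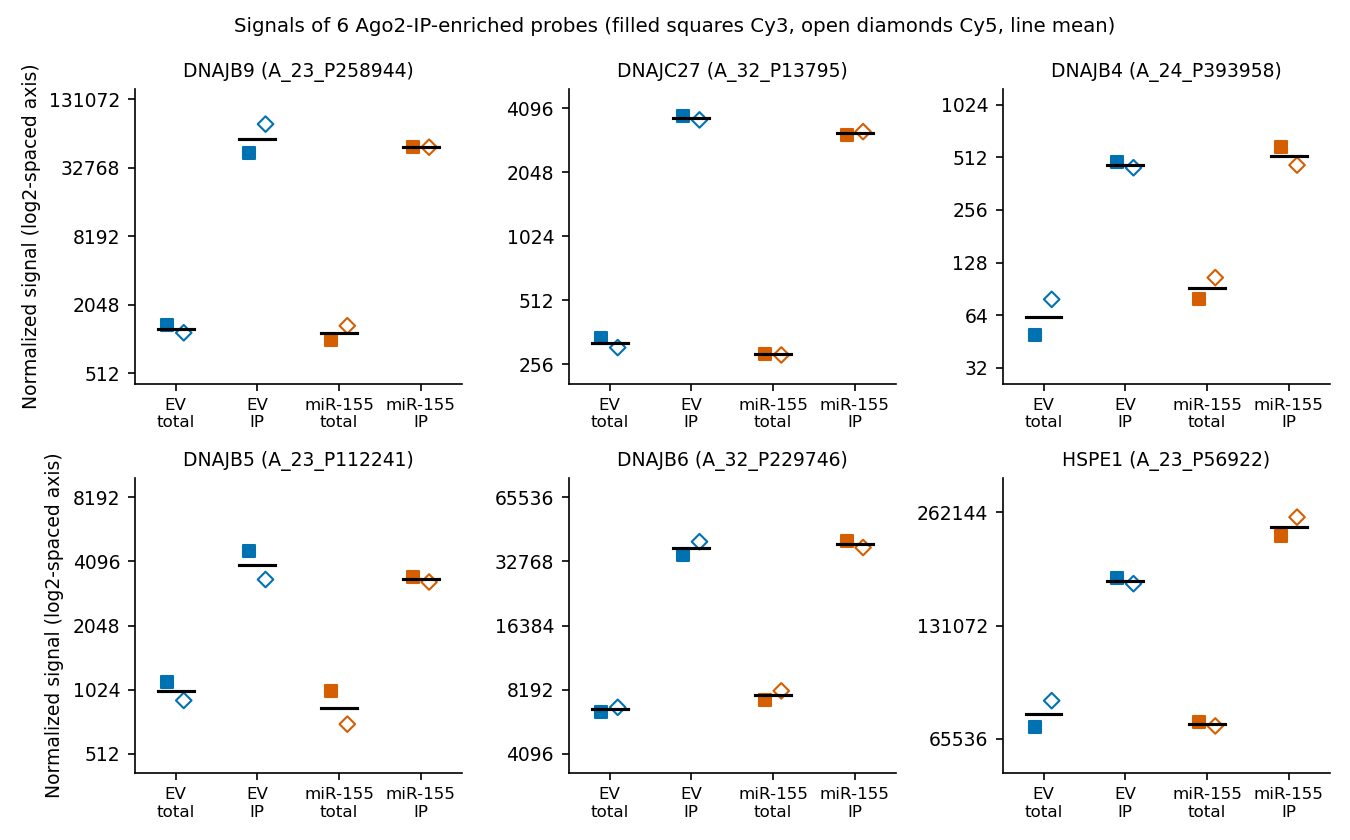
Normalized signal (vertical axes, log2-spaced) of 1 probe of each of 6 Ago2-enriched genes in total and IP RNA of EV-ST486 (blue) and miR-155-ST486 (orange); filled squares are Cy3, open diamonds Cy5 and lines their mean. In each panel all IP values lie above all total values. Within a vector this follows from showing probes past 2-fold whose labellings differ at most 2-fold. The distance is widest for DNAJB9 (at least 43750 in IP RNA and at most 1349 in total RNA).

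The 4 kept probes of DNAJB6, a J protein that keeps aggregation-prone proteins soluble, fell on opposite sides of 1. The 3 probes designed on NM_005494, the short transcript variant, had IP/T ratios of 5.72, 5.42 and 3.23 with the empty vector and of 5.15, 4.53 and 2.62 with miR-155. The probe designed on NM_058246, the long variant, had ratios of 0.453 (0.463 and 0.443 in the dye orientations) and 0.519 (0.463 and 0.583). With normexp the short-variant probes had 3.91, 2.87 and 1.33 with the empty vector and 3.81, 2.84 and 1.29 with miR-155, so 1 of them no longer reached 2, and the long-variant probe had 0.830 with the empty vector. The brightest short-variant probe gave total RNA signals of 6453 and 6758 and IP RNA signals of 35205 and 40592 with the empty vector. The long-variant probe gave 564 and 568 in total and 252 and 261 in IP RNA of the same cells. The probes therefore spanned 12.6-fold in EV-ST486 and 9.91-fold with miR-155, and the order of the variants was the same in each dye orientation.

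HSPA8, the constitutive cytosolic HSP70, showed the same kind of difference. The 3 probes on NM_006597 had ratios of 1.82, 1.95 and 2.06 with the empty vector and of 1.67, 1.67 and 1.65 with miR-155. The probe on NM_153201 had ratios of 0.429 (0.361 and 0.508) and 0.441 (0.410 and 0.476), and with normexp of 0.594 and 0.637. Signals of 1 NM_006597 probe were 78347 and 56960 in total RNA and 143376 and 131855 in IP RNA of EV-ST486, while the NM_153201 probe gave 6394 and 5086 in total RNA and 2586 and 2311 in IP RNA. HSPA8 passed 2-fold with the empty vector on 1 probe only, and its ratio was 1.68 and 2.52 in the dye orientations.

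DNAJB12, a J protein of the ER membrane, had ratios of 2.12 and 1.53 in EV-ST486 and 2.05 and 1.86 with miR-155 on its NM_001002762 probes. On its NM_017626 probe the ratios were 0.570 and 0.668. With normexp the probe past 2-fold had 1.51 and 1.38. For HSPD1 and DNAJC21 probes of a single transcript differed: the HSPD1 probes had ratios of 1.40 and 0.530 in EV-ST486 and 1.31 and 0.478 with miR-155, and the DNAJC21 probes 1.38 and 0.537, and 1.46 and 0.616. In all, 17 member genes had at least 2 kept probes, and the probes of 6 of them differed more than 2-fold in each vector, with a median spread of 1.53-fold in EV-ST486 and 1.60-fold with miR-155. DNAJB6, HSPA8, DNAJB12, HSPD1 and DNAJC21 did so in both, joined by DNAJC11 in EV-ST486 and by HSPA5 with miR-155. The spread was not counted over all genes of the array, so these numbers do not set the chaperone genes apart. The positions of the probes in the transcripts were not analysed here, and HSPA8, HSPD1, HSPE1 and the cytosolic HSP90 genes have near-identical processed copies in the genome that could share their probes.

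**Figure D3:**
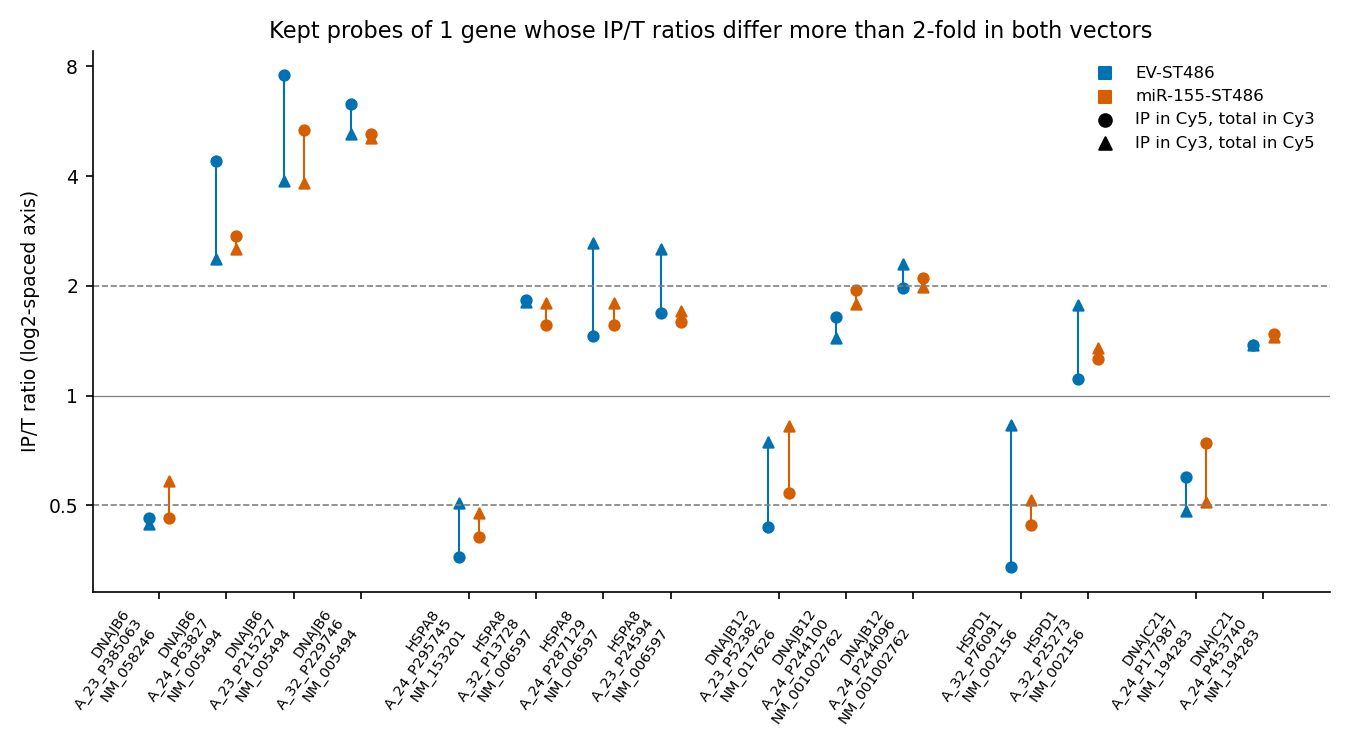
IP/T ratio (vertical axis, log2-spaced) of each kept probe of the 5 genes whose probes differed more than 2-fold in both EV-ST486 (blue) and miR-155-ST486 (orange); circles are arrays with IP RNA in Cy5, triangles arrays with IP RNA in Cy3, and dashed lines mark 2-fold. For DNAJB6 and HSPA8 1 probe lies below 1 in both orientations and the other 3 lie above it.

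HSPE1, the lid of the mitochondrial chaperonin, was enriched in both vectors. Its total RNA signals were 70562 and 82745 in EV-ST486 and 72815 and 70892 with miR-155, and its IP RNA signals 174847 and 169320, and 226396 and 254368. Its IP/T ratios were 2.25 (2.40 and 2.11) with the empty vector and 3.34 (3.49 and 3.19) with miR-155, and it kept above 2 with normexp, at 2.85 and 3.31. The miR-155/EV ratio of the IP/T ratios was 1.48, with 1.46 and 1.51 in the dye orientations. Its partner HSPD1 was not enriched past 2-fold on either probe.

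HSPB1, the most widely expressed small heat shock protein, lay at the 2-fold threshold. Its 3 probes had ratios of 1.77, 1.82 and 2.03 in EV-ST486 and of 1.94, 2.01 and 2.30 with miR-155. All were above 1 in each dye orientation. DNAJC19, a subunit of the mitochondrial import motor, passed 2-fold with miR-155 on 1 of its probes, with 2.17 (2.32 and 2.04) against 1.45 with the empty vector. The values nearest to the threshold were 2.03 (HSPB1) and 1.95 (HSPA8) in EV-ST486 and 2.01 and 1.94 (both HSPB1) with miR-155.

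Transcripts below 0.5 with the empty vector were those of HSPA4L (0.398), the NM_153201 probe of HSPA8 (0.429), the long-variant probe of DNAJB6 (0.453), DNAJC2 (0.494) and DNAJC15 (0.494). DNAJC2, a J protein at the ribosome, had signals of 10871 and 11266 in total RNA and 5442 and 5495 in IP RNA of EV-ST486. With miR-155 it gave 15084 and 14876 in total RNA and 6046 and 6031 in IP RNA, a ratio of 0.403 (0.400 and 0.406). DNAJC15, a J protein of the mitochondrial inner membrane, had ratios of 0.494 and 0.420. HSPB9, a small heat shock protein best known from testis, had 0.502 and 0.414 at signals of at most 204. With miR-155 HSPA4 (0.462), HSPD1 (0.478) and DNAJC8 (0.497) each also had 1 probe below 0.5, and their other kept probes had 0.740, 1.31, and 0.608 and 0.613. With normexp no chaperone probe lay at or below 0.5 in either vector.

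The HSP90 genes, HSPA5, HSPA9, HSPH1, DNAJA1 and DNAJA2 were neither enriched nor depleted past 2-fold on any kept probe. Over the 4 probes of HSP90AA1 the IP/T ratio ranged from 0.666 to 1.26 with the empty vector and from 0.679 to 1.21 with miR-155. The 3 HSP90AB1 probes ranged from 0.903 to 1.55 and from 1.05 to 1.47. HSP90B1 had 1.12 and 1.13 in EV-ST486 and 0.904 and 0.892 with miR-155, and HSPA5 0.858 and 1.20, and 0.718 and 1.52. HSPA9, the mitochondrial HSP70, had 1.00 and 0.934, HSPH1 0.900 and 0.732, DNAJA2 0.852 and 0.713, and DNAJA1 1.03 and 1.30, and 0.731 and 0.901. Ratios of HSPA9, HSPH1, DNAJA2 and the HSPA5, DNAJA1 and HSP90B1 probes lay on both sides of 1 in the dye orientations of at least 1 vector. So did those of several HSP90AA1 probes, 1 of them with 0.859 and 1.85 in EV-ST486. Among the 15 probes of 11 genes of the ER, DNAJB9 and 1 DNAJB12 probe were at or above 2 in both vectors, and their median ratio was 1.12 in EV-ST486 and 0.904 with miR-155.

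Most chaperone probes enriched with the empty vector were also enriched with miR-155. Of the 14 and 15 probes at or above 2, 13 were shared (92.9% of the first set and 86.7% of the second), and of the 5 and 8 probes at or below 0.5, 3 were shared (60.0% and 37.5%). The DNAJC25-GNG10 probes were among the 13. This overlap was not counted over all kept probes, so the shares do not set the chaperone probes apart. The log2 IP/T ratios of the vectors correlated with a Pearson r of 0.96 over the 75 probes, which share probe sequences, and of 0.93 over all kept probes.

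**Figure D4:**
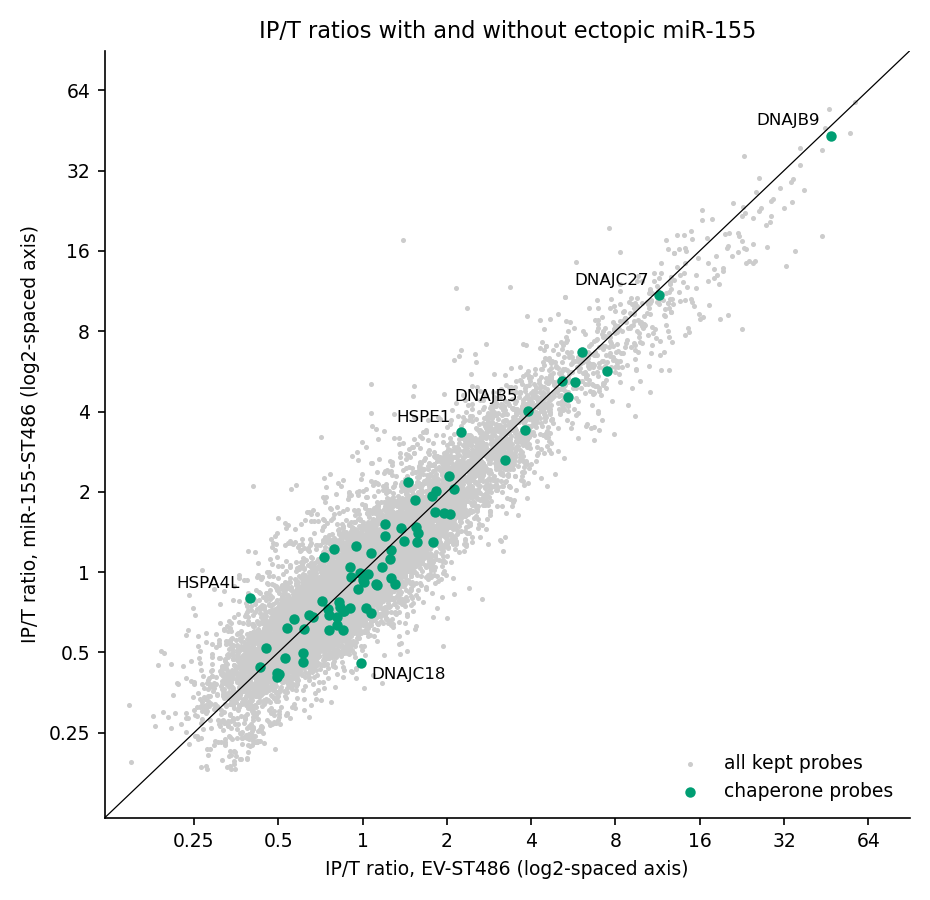
IP/T ratio in miR-155-ST486 against EV-ST486 (both axes log2-spaced) for the 75 chaperone probes (green) and all 15529 kept probes (grey), with the line of equal ratios. DNAJB9 and DNAJC27 lie near that line at the upper end, HSPA4L (0.398 and 0.800) above it and DNAJC18 (0.990 and 0.457) below it.

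Only 1 probe had a miR-155/EV ratio of IP/T ratios of at least 2 (1.33% of members, against 1.15% of all kept probes) and 1 a ratio of at most 0.5 (1.33%, against 0.477%). In both dye orientations 0 probes passed either way, against 0.670% and 0.135% of all kept probes. The higher one was HSPA4L, an HSP110 protein, at 2.01 with 2.62 and 1.54 in the orientations. Its signals were 167 and 220 in total RNA and 102 and 57.1 in IP RNA of EV-ST486, and 244 and 236, and 169 and 219, with miR-155. The IP RNA of EV-ST486 was detected in 1 of 2 labellings. The lower one was DNAJC18, a J protein of the ER membrane, at 0.462 (0.336 and 0.635), which was detected in 5 of 8 channels at signals of at most 177.

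At or above 1.5 were 3 probes (4.00%, against 4.37%), those of HSPA4L and, with ratios of 1.55 each, of DNAJB1 and DNAJC11. At or below 1/1.5 were 2 probes (2.67%, against 4.38%), those of DNAJC18 and, with 0.654, of DNAJC3, which aids folding in the ER. DNAJB1, the main J protein partner of inducible HSP70, had total RNA signals of 1760 and 1981 in EV-ST486 and 1503 and 1881 with miR-155. Its IP RNA signals were 1126 and 1937, and 1870 and 2268. The lower Cy3 value of EV-ST486 IP RNA stood apart from the other IP values. DNAJC11, a mitochondrial J protein, passed only on its dim probe, and its bright probe had 0.825. The median miR-155/EV ratio was 0.920 for the chaperone probes and 0.983 for all kept probes.

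In total RNA the chaperone transcripts were higher in miR-155-ST486 than in EV-ST486 more often than transcripts in general. No probe differed 2-fold (0 of 75 at or above 2, against 0.676%, and 0 at or below 0.5, against 0.380%), but 11 probes of 9 genes (14.7%) were at least 1.5-fold higher, against 5.37% of all kept probes. Only DNAJC4, at 0.610 (1.33%, against 4.12%), was at least 1.5-fold lower. Ratios above 1 with both dyes were found for 46 probes (61.3%, against 37.3%) and below 1 with both for 17 (22.7%, against 34.5%). The median ratio was 1.17 (1.14 with Cy3 and 1.19 with Cy5), compared with 1.01 for all kept probes.

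All 9 HSP90 probes were higher with miR-155 with both dyes, with a median ratio of 1.45. HSP90AB1, the constitutive cytosolic HSP90, gave 653 and 580 in EV-ST486 and 1089 and 1055 in miR-155-ST486 total RNA on 1 probe, 729 and 722, and 1445 and 1211, on another, and 2789 and 2671, and 4232 and 3995, on the third. The ratios were 1.74, 1.82 and 1.51. The probes of HSP90AA1, the inducible form, had ratios of 1.71, 1.45, 1.36 and 1.35, and those of HSP90B1 1.39 and 1.08.

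Of the 13 HSP70 and HSP110 probes 10 were above 1 with both dyes and 1 was below, with a median of 1.38. HSPA9 was 1.58-fold (1967 and 2714 in EV-ST486 and 3216 and 4160 with miR-155), HSPH1 1.54-fold (7953 and 8808, and 11955 and 13819) and HSPA4 1.57-fold and 1.38-fold higher. HSPA8 had ratios of 1.39, 1.40 and 1.02 on its NM_006597 probes and 0.975 on the other. HSPD1 was higher on both probes (1.61 and 1.40), whereas HSPE1 was not (0.940, with 1.03 and 0.857). The DNAJA1 probes had ratios of 1.13 and 1.36. DNAJA2 had the highest ratio of all chaperone probes, 1.85 (1.60 and 2.14), from signals of 809 and 527 in EV-ST486 and 1297 and 1130 with miR-155.

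The J proteins of the other classes and the small heat shock proteins had medians nearer to that of all kept probes. The median ratio was 1.09 for the DNAJB, 1.07 for the DNAJC and 1.00 for the small heat shock protein probes. The 3 HSPB1 probes lay between 0.989 and 1.04. Among DNAJC probes 11 were above 1 and 9 below 1 with both dyes, from 1.59 for DNAJC16 to 0.610 for DNAJC4 (991 and 1149 in EV-ST486 and 699 and 605 with miR-155). Without quantile normalization the median of all probes was itself 1.36-fold higher in miR-155-ST486 total RNA, and relative to it the chaperone probes had a median of 1.17, close to the 1.16 with quantile normalization. All 9 HSP90 probes were above the median of all probes under each of the 11 settings run. The HSP70 and HSP110 probes had a median of 1.36 relative to that of all probes, which was 1.06 with normexp (7 of 11 kept probes above it) and 1.03 with normexp and high local backgrounds replaced (5 of 9). Relative to the median of all probes, the 11 probes counted above were still at least 1.5-fold higher in 10 cases with the settings used here, in 0 with normexp, where 10 of them were above it, and in 4 with high local backgrounds replaced.

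**Figure D5:**
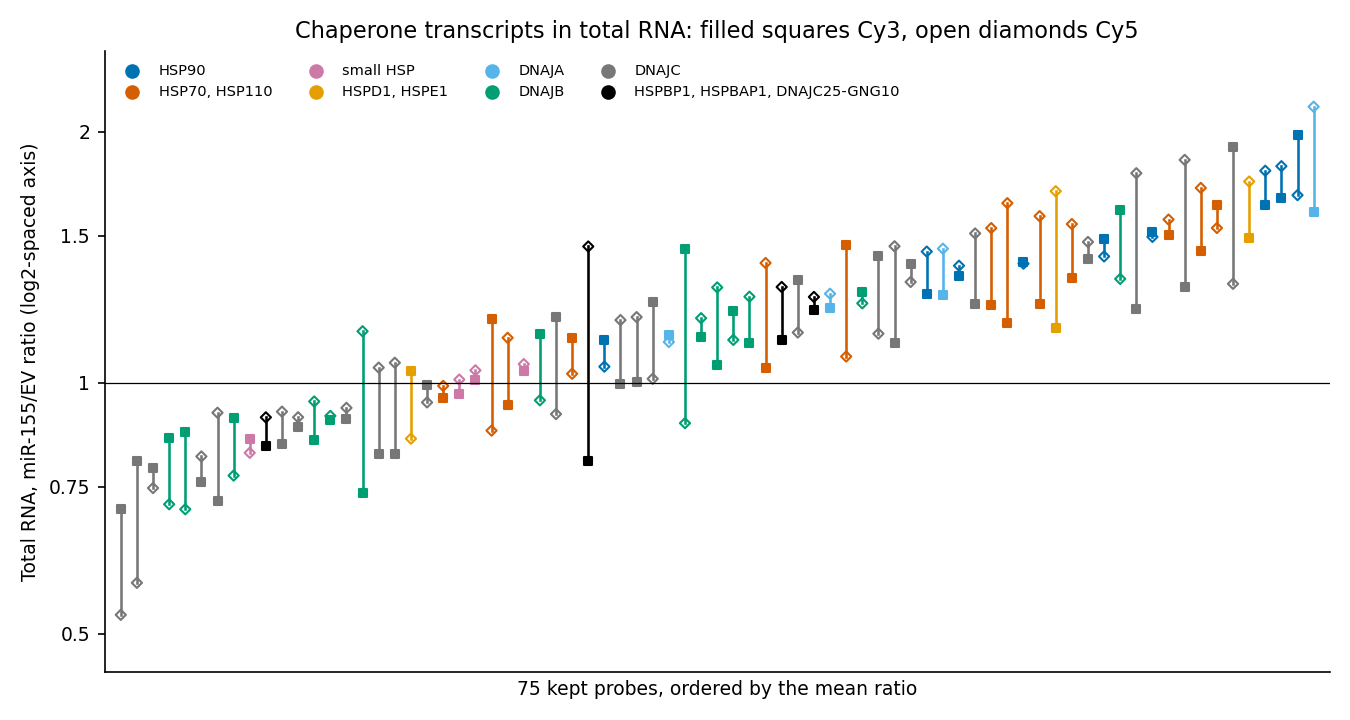
Ratio of total RNA signals, miR-155-ST486 over EV-ST486 (vertical axis, log2-spaced), for the 75 kept chaperone probes in the order of their mean ratio; filled squares are Cy3, open diamonds Cy5 and colours the class. The 9 HSP90 probes (dark blue) all lie above 1 with both dyes, and 46 of the 75 probes do.

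In IP RNA, 2 probes were at least 2-fold higher with miR-155 (2.67%, against 1.28%), HSPA4L with 2.52 and 1 HSP90AB1 probe with 2.01, and 0 were at most 0.5 (against 1.05%). The HSP90AB1 probe gave 530 and 583 in EV-ST486 and 1097 and 1143 in miR-155-ST486 IP RNA, and its total RNA was 1.74-fold higher. The median ratio in IP RNA was 1.12 for the chaperone probes and 1.00 for all kept probes.

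The partners of these chaperones were read from 46 further genes of protein folding, of which 45 were on the array and 62 probes were kept. At or above 2 were 2 probes and at or below 0.5 were 10 probes with the empty vector, and with miR-155 again 2 and 10. These were 3.23% and 16.1% of the 62, against 12.1% and 10.0% of all kept probes with the empty vector and 12.2% and 9.83% with miR-155. The 2 enriched were single probes of GRPEL2 and HSBP1. GRPEL2, a nucleotide exchange factor of mitochondrial HSP70, had 2.70 and 2.37, with 1.09 and 0.769 on its other probe. The kept probe of GRPEL1, also among the HSP70 regulators, had 0.997 and 1.18. HSBP1, a small protein that binds heat shock factor, had 4.09 and 4.63, with 1.28 and 1.18 on its other probe. Among the depleted, ST13, which joins HSP70 to HSP90, had ratios between 0.407 and 0.694 in EV-ST486 and between 0.360 and 0.652 with miR-155 on its 7 kept probes. Several of the 10 were thus probes of 1 gene, with 0.407, 0.465, 0.468 and 0.483 in EV-ST486. The HSP70 regulators, which include ST13, held 5 of the 10 in EV-ST486 and 6 with miR-155. All 6 with miR-155 were ST13 probes, with ratios from 0.360 to 0.497. FKBP4 (0.215), CCT5 (0.309), TCP1 (0.346), CDC37 (0.378), STIP1 (0.451) and BAG5 (0.498) each had 1 probe below 0.5 in EV-ST486. The other kept probes of TCP1 had 1.46 and 0.527, and those of CCT5, FKBP4 and BAG5 had 1.05, 0.721 and 0.517. The FKBP4 probe below 0.5 was detected in 6 channels. In total RNA 0 of the 62 probes differed 2-fold (against 0.676% at or above 2 and 0.380% at or below 0.5). The median ratio was 1.37 for the cytosolic chaperonin TRiC/CCT and 1.26 for the HSP90 cochaperones. It was 1.13 for J proteins with other names, 1.04 for heat shock factors with HSBP1, 1.03 for the HSP70 regulators and 1.02 for prefoldin. The median of all kept probes was 1.01.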

How the data were processed

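The authors deposited Agilent Feature Extraction 10.5.1.1 files, whose intensity values had been corrected for background and dye within each array (per the file headers), and a table of log2 values that they quantile-normalized and filtered with GeneSpring. From the intensities, control spots were dropped, spots of a probe averaged, signals below 1 set to 1, and log2 values quantile-normalized over 8 channels. Probes were kept if 4 or more channels detected them and their labellings differed at most 2-fold, and labellings were averaged. Of the deposited values, 99.9% lay within 0.05 of these. Symbols came from RefSeq accessions (23958 of 41000 probes). Named were members past 2-fold, past 1.5-fold in miR-155/EV, with probes on opposite sides of the threshold, or on a list of core chaperones. Members and lists were chosen with earlier results of these data known. No test was possible with n = 1, and the number of arrays limits precision. The ratios were tested on simulated data. Alternatives covered background correction, normalization, filters, labellings, threshold and probes per gene. Software was limma 3.58.1 in R 4.3.3, and pandas 2.3.3, matplotlib 3.10.9 and numpy 2.4.6 in Python 3.11.15.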

Additional observations from a re-analysis of the deposited data

Results flagged for a closer look

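One probe of HSP90AB1 had an IP/T ratio below 1 with both labellings with the empty vector (0.903, from 0.893 and 0.914) and above 1 with both with miR-155 (1.05, from 1.05 and 1.04). With 1 RNA sample per condition the difference was not tested, and the other 2 HSP90AB1 probes were above 1 in both vectors (1.21 and 1.55 with the empty vector, 1.37 and 1.47 with miR-155).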

How the results depend on the processing

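No paired analysis was possible because each condition had only 1 RNA sample and the labels give no replicate numbers. Of 190 alternative counts and medians over the chaperone probes, 125 stayed within 1.5-fold (counts) or within the SD of the labellings (medians) and 65 moved, and the cause was not tested where none is given. The 42 single IP/T ratios past 2-fold had the same direction wherever a setting gave them, and stayed past 2-fold in 14 of 41 with normexp, 24 of 39 with normexp and high local backgrounds replaced, 34 of 42 with loess, 36 of 38 without quantile normalization and 41 of 41 with the deposited log2 values. Normexp left 6 (EV-ST486) and 8 (miR-155-ST486) probes at or above 2 in IP/T and 0 at or below 0.5 in both, 0 and 0 in the miR-155/EV ratio with a median log2 ratio of -0.0379, a median log2 ratio of 0.0535 in total RNA, and 0 probes at or above 2 in IP RNA with a median of 0.02. With high local backgrounds replaced, an alternative added after seeing the data because 33 backgrounds exceeded 500, 1 and 2 probes were at or below 0.5 in IP/T, 0 and 0 passed in miR-155/EV (median -0.0591), the total RNA median was 0.13 and IP RNA had 0 at or above 2 (median 0.0484). With loess and Aquantile 2 and 3 probes were at or below 0.5 in IP/T, with medians of 0.24 and 0.17, and 2 in miR-155/EV (median -0.0844). Without quantile normalization 3 probes were at or below 0.5 in EV-ST486 cells, the median IP/T in miR-155-ST486 cells was 0.0697, 0 and 0 passed in miR-155/EV, and 10 (total RNA, median 0.66) and 7 (IP RNA, median 0.61) were at least 2-fold higher in miR-155-ST486 cells, while the median log2 ratio of all probes was 0.44 in both fractions. The deposited values gave a median IP/T of -0.0453 in miR-155-ST486 cells and 0 probes at or below 0.5 in miR-155/EV. Detection in all 8 channels left 0 and 0 in miR-155/EV, since HSPA4L and DNAJC18 were then not kept, and 1 in IP RNA. With no filter on detection the total RNA median was 0.18. With no filter on labelling differences the median IP/T in miR-155-ST486 cells was -0.0675, with 2 probes at or below 0.5 in miR-155/EV and 1 at or above 2 in total RNA. With either labelling left out, the median log2 IP/T ranged from 0.0284 to 0.18 in EV-ST486 and from -0.0081 to 0.0247 in miR-155-ST486 cells, where 4 to 9 probes were at or below 0.5. In miR-155/EV, 0 to 1 passed in each direction (median -0.0819 to -0.0480), 0 to 1 were at or above 2 in total RNA and 0 to 2 at or below 0.5 in IP RNA. At a threshold of 1.5, 23 probes were above and 14 below in EV-ST486 and 14 below in miR-155-ST486 cells, 3 and 2 in miR-155/EV, 11 and 1 in total RNA and 7 and 2 in IP RNA. With 1 probe a gene, 9 and 3 passed in EV-ST486 cells, 4 were at or below 0.5 in miR-155-ST486 cells (median -0.0656) and 1 at or above 2 in IP RNA. Without HSPBP1, HSPBAP1 and DNAJC25-GNG10, also added after seeing the data, the median IP/T in miR-155-ST486 cells was -0.0637. Signal over background limits the dim probes most: 11 of the 75 kept probes were detected in 5 to 7 of the 8 channels, among them HSPA4L, DNAJC18, HSPB9 and both DNAJB4 probes.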
